A study of Homo sapiens with 8 samples.

Results

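Interferon-stimulated genes are genes whose transcription rises when a cell is exposed to an interferon. A set of 47 such genes, taken by gene symbol and matched to the Entrez identifiers of the deposited table, was examined here among the 17131 genes listed. All 47 were listed, and 46 of them were among the 12434 genes with enough reads to be tested. IFI44L, with 1 to 8 reads per library, was not tested.

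The libraries came from HaCaT, an established line of human keratinocytes of wild type genotype. Per the study's methods, every culture was stimulated for 24 h with M5, a cocktail of 5 cytokines at 10 ng/mL (oncostatin M, TNF-α, IL-1α, IL-17A and IL-22) that brings keratinocytes into a psoriasis-like state, and the inhibitor OTS514, directed at the kinase TOPK, was given at 10 nM beginning 12 h before M5. No interferon was among the added cytokines, and no unstimulated culture was analysed here. There were 4 libraries titled M5_O5 and 4 titled M5. The labels of these groups conflict. By its title M5_O5 would be M5 plus inhibitor, but the treatment field of those libraries gives none, and names the TOPK inhibitor for the group titled M5. Every direction below is therefore given by title. If the entered treatment holds, the M5 libraries are the inhibitor-treated ones, and if the titles hold, the M5_O5 libraries are. Nothing in the labels says that the libraries of a group came from separate cultures, so the p-values measure only the spread between these libraries, which may be technical.

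As background, type I interferons bind the receptor made of IFNAR1 and IFNAR2, and the attached kinases JAK1 and TYK2 start a signal through STAT2, which joins IRF9 in a complex that binds the interferon-stimulated response element (ISRE) in the promoters of target genes. Interferon gamma acts through IFNGR1, IFNGR2, JAK1 and JAK2 and on genes that carry the gamma-activated sequence (GAS). The products of the target genes sense viral RNA, block translation and viral entry, and modify other proteins with ISG15. Keratinocytes make interferon kappa and interferon epsilon, and interferon-stimulated genes are known to be expressed in psoriatic epidermis.

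The ISRE core was searched in RefSeq promoter windows of GRCh38.p14, which run from 250 bases before to 50 bases after a gene's start, as GAAA, any 2 bases and GAAA again, on both strands with overlapping matches counted. Windows were found for 38 members, and not for IFIT2, DHX58, TRIM22, OAS2, MX2, USP18, IRF7, GBP2 and OASL. The core was present in 27 of the 38 members (71.1%), and in 4.38% of the 27305 genes with a window. It is shown with 15 bases on either side of the matches, cut at the gene's start, for members of the IFIT cluster and GBP1, which were higher in the M5_O5 libraries, for ISG15, which was not called different, and for IFI6 and IFI27, which were lower. Capitals mark the core in either orientation. For IFIT3 one of its windows is shown, and IFIT5 has a further match across its start that is not shown. IRF1 had no ISRE core and is shown for its GAS match, searched as TTCNNNGAA on both strands.
IFIT3 (chr10:89332420-89332502, plus strand): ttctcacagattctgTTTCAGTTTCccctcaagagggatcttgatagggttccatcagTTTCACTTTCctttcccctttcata
IFIT1 (chr10:89392492-89392544, plus strand): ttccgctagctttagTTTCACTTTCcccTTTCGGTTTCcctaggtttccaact
IFIT5 (chr10:89414508-89414567, plus strand): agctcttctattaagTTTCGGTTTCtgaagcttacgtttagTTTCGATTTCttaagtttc
GBP1 (chr1:89065311-89065350, minus strand): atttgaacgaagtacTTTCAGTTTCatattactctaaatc
ISG15 (chr1:1013369-1013414, plus strand): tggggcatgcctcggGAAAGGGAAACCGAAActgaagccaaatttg
IFI6 (chr1:27672261-27672363, minus strand): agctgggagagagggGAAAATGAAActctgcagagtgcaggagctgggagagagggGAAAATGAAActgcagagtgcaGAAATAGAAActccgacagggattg
IFI27 (chr14:94110613-94110665, plus strand): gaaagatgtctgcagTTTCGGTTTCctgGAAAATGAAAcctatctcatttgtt
IRF1 (chr5:132490874-132490912, minus strand): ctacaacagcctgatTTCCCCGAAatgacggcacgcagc

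The ISRE core occurred among members of every call. Among tested members with a window it was present in 4 of the 6 called higher in M5_O5, 5 of the 9 called lower and 17 of the 22 not called. The IFI6 window held 3 matches and the windows shown for IFIT3, IFIT1 and IFI27 held 2 each, although IFIT3 and IFIT1 were higher and IFI6 and IFI27 lower in M5_O5. The GAS letters were present in 12 of the 38 members (31.6%) and in 9.38% of genes. These matches are descriptions of the windows and not sites shown to be bound.

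Depth was similar between groups, with 13708044 to 16922673 estimated reads per library and the smallest total in M5 replicate 1. In the check of the cell type, all 7 keratinocyte markers on the list were measured, each between 544 and 6185 CPM (read counts scaled to library size as adjusted by TMM). Their summed level was 13663 to 15598 CPM in the M5_O5 libraries and 16495 to 19941 CPM in the M5 libraries, so it moved with the groups. The leukocyte marker PTPRC was at 0 reads, and no plasmacytoid dendritic cell, endothelial or melanocyte marker had enough reads to be tested. Of 5 fibroblast markers, 2 were tested (COL1A1 and LUM), and their list summed to 31.1 to 35.3 CPM in M5_O5 and to 42 to 56.4 CPM in M5. Nearly all of this was COL1A1, at 30.4 to 34.8 CPM in M5_O5 and 40.5 to 54.5 CPM in M5. The leukocyte list, 1 of whose 6 genes was tested (CD14), summed to 31.7 to 37.4 CPM in M5_O5 and to 36.2 to 40.4 CPM in M5. The part of these differences in the results below was not tested. In bulk libraries, fewer cells with a transcript and less of it per cell cannot be told apart.

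M5_O5 replicate 1 stood apart from its group in the interferon-stimulated genes. It was the lowest of the 4 M5_O5 libraries in 34 of the 46 members tested (73.9%), and in 30.5% of all genes tested. It was the highest of them in 4 members (8.7%) and in 31.4% of all genes. Over all genes it was more often lowest, and more often highest, than any other M5_O5 library. The other M5_O5 libraries were lowest in 1, 7 and 4 members. The median member was 0.18 lower there on the log2 scale than in the mean of the other M5_O5 libraries (-0.18), with 0.00 over all genes. Counted on the deposited TPM (a level corrected for transcript length), 25 members were lowest in that library. XAF1 was farthest down (-0.63), followed by OAS2 (-0.52), IFIH1 (-0.50), DHX58 (-0.47) and MX1 (-0.44), while ISG15 (0.20), IFI6 (0.17), EIF2AK2 (0.17) and IFIT5 (0.13) were higher there than in the rest of the group. The lower level was thus shared by members called higher, of which 7 were lowest in that library, and by members called lower, of which 9 were. The counts of calls, and the members whose call or value it moved most, are given with and without it.

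**Figure D1:**
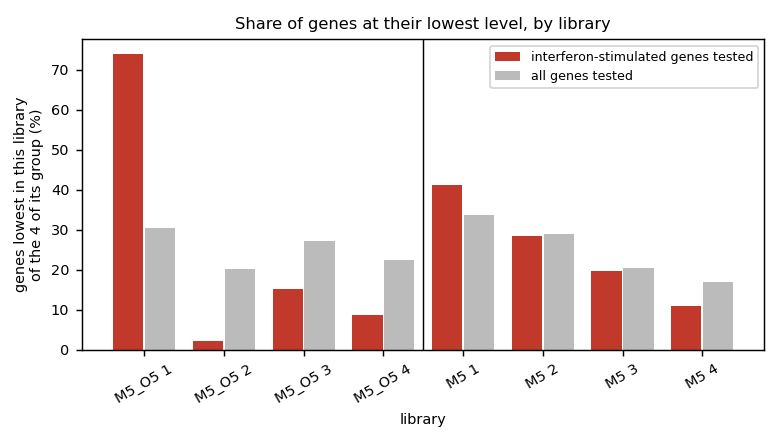
Percent of genes (vertical axis, from 0) whose level was lowest in each library (horizontal axis) among the 4 libraries of its group, with red bars for the 46 members tested and grey bars for all 12434 genes tested. M5_O5 replicate 1 held the lowest level of 73.9% of members and 30.5% of all genes, and in the M5 group replicate 1 held 41.3% and 33.6%.

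The main comparison asked how interferon-stimulated transcripts differed between the M5_O5 and M5 libraries. Members differed in both directions. By edgeR's quasi-likelihood test with Benjamini-Hochberg adjustment over all 12434 genes, 10 members were higher and 11 lower in M5_O5 at an adjusted p under 0.05, and 25 were not called. The higher members were 21.7% of those tested, beside 19.5% of all genes, and the lower members were 23.9%, beside 17.6%. The median log2 fold change of the members was 0.06, beside 0.01 over all genes. In 6 members every M5_O5 library lay above every M5 library, and in 9 every one lay below. This is 15 of 46 members, where 33.6% of all genes had groups that did not overlap, 17.8% of all genes with M5_O5 above and 15.8% with M5_O5 below.

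Differences of at least 2-fold were found in 3 members, IFIT2, IFIT3 and GBP1, all higher in M5_O5. Over all genes 3.2% passed the same rule in either direction, 2.87% higher and 0.33% lower. The other 7 higher members were under 2-fold, and the 11 lower members had log2 fold changes between -0.65 and -0.23. Members not called lay between -0.64 and 0.26. Without M5_O5 replicate 1, 11 of the 46 members tested were higher and 11 lower, beside 18% and 16.9% of all genes in that fit. IFIT5 and IFI35 were then no longer called, OAS2, SAMD9L and SP100 were called higher, and the 11 lower members were the same genes. Without M5_O5 replicate 2, and likewise without M5 replicate 3, 6 of the 46 members were called higher, beside 17% and 15.3% of all genes. When counts were scaled by library size alone, which moved the median of all genes to 0.13, 16 of the 46 members were higher and 7 lower. Over all genes 31% were higher and 8.11% lower in that setting. PLSCR1, PARP9, OAS3 and IRF9 lost their lower call with library size scaling, with the trend of the fold change with expression level removed, and with limma on TPM. Their log2 fold changes in these settings were between -0.18 and -0.08. USP18 lost its higher call with that trend removed (0.41, adjusted p = 0.0694), as did IFIT1 (0.33, adjusted p = 0.0614).

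**Figure D2:**
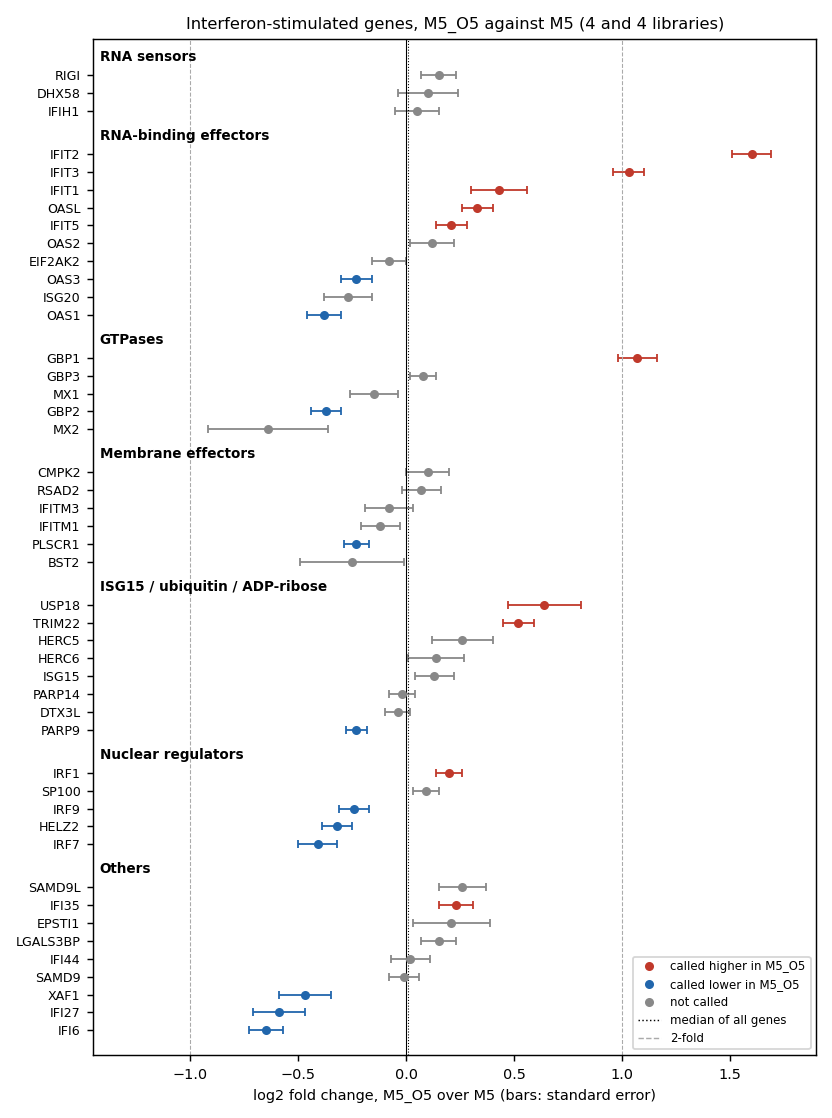
Log2 fold change of M5_O5 over M5 (horizontal axis) for the 46 members tested, grouped by role, with bars for the standard error, colour for the call at an adjusted p under 0.05 and dashed lines at 2-fold. IFIT2 (1.60), GBP1 (1.07) and IFIT3 (1.03) lie past the line on the right, and no called member lies past the line on the left, where IFI6 (-0.65) is the lowest.

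The RNA-binding effectors comprise the IFIT proteins, which bind viral or foreign RNA and block its translation, the OAS proteins, which make the second messenger that activates RNase L, the kinase EIF2AK2 (PKR) and the exonuclease ISG20. Of 10 members 5 were higher (IFIT2, IFIT3, IFIT1, OASL and IFIT5), 2 were lower (OAS1 and OAS3), and 3 were not called. Beside the counts of this role and those below, the shares over all genes were 19.5% higher and 17.6% lower.

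IFIT2 had the largest difference of all 46 members. Its level was 171, 192, 209 and 209 CPM in M5_O5 replicates 1 to 4 and 75, 60.3, 57.2 and 66.3 CPM in M5 replicates 1 to 4. The lowest M5_O5 library was more than 2-fold above the highest M5 library, and the log2 fold change was 1.60 ± 0.09 (SE, n = 4 and 4, edgeR adjusted p = 4.51e-08). It ranked 84 of the 12434 genes from the highest change.

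IFIT3, which binds IFIT1 and IFIT2, measured 177, 204, 212 and 203 CPM in M5_O5 and 106, 92.2, 93.1 and 98.5 CPM in M5. The groups were well separated, with a log2 fold change of 1.03 ± 0.07 (edgeR adjusted p = 2.42e-07). In both genes M5_O5 replicate 1 was the lowest of its group and M5 replicate 1 the highest of its own. Without M5_O5 replicate 1 the log2 fold changes were 1.65 for IFIT2 and 1.08 for IFIT3. Without M5_O5 replicate 3, IFIT3 was just short of 2-fold.

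IFIT1, which recognises RNA that lacks the host's cap methylation, was higher by less (0.43 ± 0.13, edgeR adjusted p = 0.0197), from 14.5 to 16.9 CPM in M5_O5 and from 9.47 to 15.5 CPM in M5, and its groups overlapped. Its call was lost without M5_O5 replicate 2 (adjusted p = 0.052), M5_O5 replicate 4 (0.0569), M5 replicate 2 (0.0641) or M5 replicate 3 (0.0731). IFIT5 had a log2 fold change of 0.21 (edgeR adjusted p = 0.0398), and its call was lost when any library other than M5_O5 replicate 3 or M5 replicate 1 was left out, with adjusted p between 0.0681 and 0.115. With all libraries the IFIT5 call was also lost with DESeq2 (adjusted p = 0.0664). In edgeR it was lost with no count filter (adjusted p = 0.0539) and with the expression-level trend removed (0.0814). OASL, a relative of the OAS enzymes that enhances RIG-I signaling, was higher by 0.33 (edgeR adjusted p = 0.00313) at 48.4 to 57.6 CPM in M5_O5 and 39.2 to 45.8 CPM in M5, with no overlap.

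OAS1 and OAS3 differed in the direction opposite to OASL. OAS1 was lower in M5_O5, at 33.4 to 42.3 CPM compared with 47.1 to 54.9 CPM in M5 (log2 fold change -0.38, edgeR adjusted p = 0.00198), and OAS3 was lower by a smaller amount (-0.23, adjusted p = 0.0167), at 224 to 277 and 284 to 318 CPM. Neither gene's groups overlapped, and without M5_O5 replicate 1 the values were -0.31 and -0.17. The OAS3 call was lost without M5 replicate 3 (adjusted p = 0.0511) or M5 replicate 4 (0.0569). OAS2 was 0.12 and not called, but it was 40.4 CPM in M5_O5 replicate 1 and 55.6 to 61.8 CPM in the other M5_O5 libraries, compared with 46.1 to 52.4 CPM in M5. Without that library it was called higher (0.24, edgeR adjusted p = 0.0131). EIF2AK2 (-0.08) and ISG20 (-0.27) were not called, and ISG20 was called lower without M5 replicate 1 (-0.36, adjusted p = 0.0045).

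**Figure D3:**
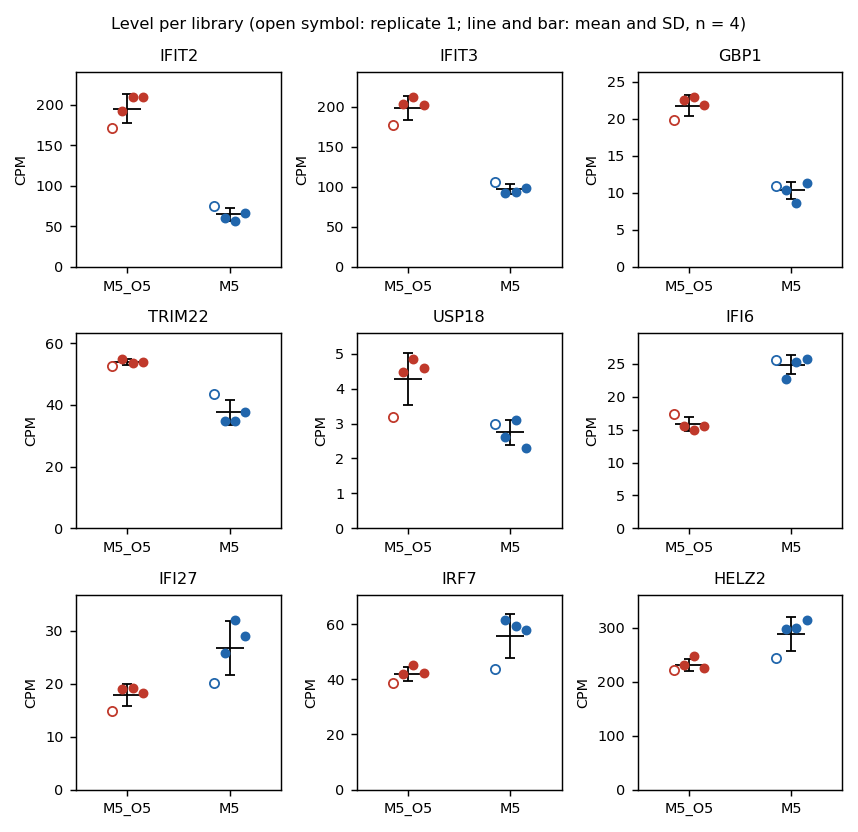
CPM (vertical axes, from 0) of 9 members in each library, with M5_O5 in red and M5 in blue, an open symbol for replicate 1 of each group, and the mean with its SD (n = 4). IFIT2, IFIT3, GBP1, TRIM22, USP18, IFI6 and IFI27 have groups that do not overlap, whereas in IRF7 and HELZ2 the open M5 symbol reaches the M5_O5 libraries.

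The GTPases of the set are the dynamin-like MX proteins, which trap viral nucleocapsids, and the guanylate-binding proteins, which coat intracellular pathogens and are known as targets of interferon gamma. One was higher (GBP1), one lower (GBP2), and 3 were not called. GBP1 measured 19.8, 22.6, 22.9 and 21.9 CPM in M5_O5 and 11, 10.4, 8.69 and 11.3 CPM in M5. Every M5_O5 library was above every M5 library, and the log2 fold change was 1.07 ± 0.09 (edgeR adjusted p = 2.56e-06). It was 1.11 without M5_O5 replicate 1 and 0.99 without M5 replicate 3, which is under the 2-fold rule.

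GBP2 moved the other way, from 104 to 128 CPM in M5_O5 and from 143 to 158 CPM in M5, with no overlap (log2 fold change -0.37, edgeR adjusted p = 0.000698). GBP3, the GTPase with the highest TPM, measured 101, 118, 107 and 117 CPM in M5_O5 and 110, 103, 105 and 103 CPM in M5, overlapping groups with a log2 fold change of 0.08 ± 0.06 (adjusted p = 0.334). MX1 was 22.2 CPM in M5_O5 replicate 1, 30 to 30.8 CPM in the other M5_O5 libraries and 26.6 to 35.4 CPM in M5 (-0.15, adjusted p = 0.284), and -0.05 without that library. MX2 was near the limit of detection, at 7 to 19 reads per library. Its levels of 0.581, 0.976, 0.415 and 0.773 CPM in M5_O5 and 0.949, 1.24, 1.12 and 0.997 CPM in M5 gave -0.64 ± 0.28 (edgeR adjusted p = 0.0828). The groups overlapped by 1 library on each side, and MX2 was called lower without M5_O5 replicate 2 (-0.86, adjusted p = 0.0407). MX2 was also called lower with the expression-level trend removed (-0.94, edgeR adjusted p = 0.0233).

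The membrane effectors held the 3 members with the highest TPM (IFITM3, IFITM1 and PLSCR1), and 1 of these 6 effectors was called. They include IFITM1 and IFITM3, which block fusion of viral envelopes, tetherin (BST2), which holds budding virions at the cell surface, the lipid scramblase PLSCR1, viperin (RSAD2) and the mitochondrial nucleotide kinase CMPK2. That 1 was PLSCR1, which was lower. IFITM3 had the highest level per length of all members, 3121 ± 438 TPM in M5_O5 and 3016 ± 283 TPM in M5 (SD, n = 4), and IFITM1 came next with 740 ± 63.5 and 735 ± 55.1 TPM.

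IFITM3 measured 458, 600, 639 and 536 CPM in M5_O5 and 472, 689, 618 and 585 CPM in M5, with replicate 1 the lowest in both groups (log2 fold change -0.08 ± 0.11, edgeR adjusted p = 0.588). The sign of this difference turned under library size scaling (0.04). IFITM1 was not called (-0.12), and was called lower without M5 replicate 1 (-0.21, adjusted p = 0.015). PLSCR1 measured 148, 145, 138 and 152 CPM in M5_O5 and 177, 156, 178 and 172 CPM in M5. All M5 libraries were above all M5_O5 libraries, by a log2 fold change of -0.23 ± 0.06 (edgeR adjusted p = 0.00643), which was -0.11 and not called under library size scaling (adjusted p = 0.173). BST2, at 18 to 34 reads per library, measured 1.16, 1.26, 1.3 and 1.84 CPM in M5_O5 and 2.04, 1.31, 1.18 and 2.12 CPM in M5, which overlapped (-0.25 ± 0.24, adjusted p = 0.439). RSAD2 (0.07) and CMPK2 (0.10), neighbours on chromosome 2, were not called, and CMPK2 was called higher without M5 replicate 1 (0.23, adjusted p = 0.0299).

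The ISG15 and ubiquitin group holds the ubiquitin-like modifier ISG15, its ligase HERC5 and the related HERC6, the protease USP18, which removes ISG15 and damps signaling at IFNAR2, the ubiquitin ligases TRIM22 and DTX3L, and the ADP-ribosylation enzymes PARP9 and PARP14. TRIM22 and USP18 were higher, PARP9 was lower, and 5 were not called. TRIM22 measured 52.7, 55, 53.6 and 53.9 CPM in M5_O5 and 43.4, 34.7, 34.7 and 37.8 CPM in M5. The M5_O5 libraries lay close together and above all M5 libraries, with a log2 fold change of 0.52 ± 0.07 (edgeR adjusted p = 0.000104).

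USP18, at 37 to 82 reads per library, measured 3.2, 4.48, 4.86 and 4.58 CPM in M5_O5 and 2.99, 2.61, 3.09 and 2.3 CPM in M5, with M5_O5 replicate 1 just above the highest M5 library. Its log2 fold change was 0.64 ± 0.17 (edgeR adjusted p = 0.00826), 0.76 without that library and 0.41, not called, once the trend with expression level was taken out. ISG15 itself measured 28.4, 24.1, 28 and 22 CPM in M5_O5 and 22.5, 25.7, 23.5 and 22.2 CPM in M5. These groups overlapped, and the log2 fold change of 0.13 ± 0.09 was not called (adjusted p = 0.285), nor was it without M5_O5 replicate 1 (0.07). ISG15 was called higher with library size scaling (0.24, edgeR adjusted p = 0.047). It was also called higher with limma on TPM (0.24 at either pseudocount, limma adjusted p = 0.0327 and 0.0329). PARP9 was lower in every M5_O5 library (94.9 to 102 CPM) than in any M5 library (111 to 122 CPM), by -0.23 (edgeR adjusted p = 0.00407). Its partner DTX3L (-0.04), PARP14 (-0.02), HERC5 (0.26) and HERC6 (0.14) were not called.

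Of the 5 nuclear regulators, 3 were called lower in M5_O5 (IRF7, HELZ2 and IRF9), IRF1 was higher, and SP100, a nuclear body protein, was not called. Over all genes 17.6% were called lower and 19.5% higher. IRF7, the factor that amplifies type I interferon transcription, measured 38.7, 42, 45.1 and 42.1 CPM in M5_O5 and 43.8, 61.5, 59.4 and 57.7 CPM in M5. M5 replicate 1 lay among the M5_O5 libraries and the other M5 libraries lay above them all (log2 fold change -0.41 ± 0.09, edgeR adjusted p = 0.00343). The helicase and coactivator HELZ2 showed the same order, with 221, 231, 247 and 226 CPM in M5_O5 and 243, 298, 299 and 314 CPM in M5 (-0.32 ± 0.07, edgeR adjusted p = 0.00382).

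IRF9, the DNA-binding partner of STAT2, was lower by a small amount, with 53.3 to 62.8 CPM in M5_O5 and 63.1 to 75.5 CPM in M5 (-0.24, edgeR adjusted p = 0.0157), and its call was lost without M5 replicate 2 (adjusted p = 0.0529). IRF1, a factor induced mainly through GAS elements, measured 119, 141, 137 and 136 CPM in M5_O5 and 119, 115, 110 and 118 CPM in M5. M5_O5 replicate 1 lay at the level of the M5 group and the other M5_O5 libraries above it (0.20 ± 0.06, edgeR adjusted p = 0.0168). Without that library the log2 fold change was 0.25, and the call was lost without M5_O5 replicate 2 (adjusted p = 0.0605) or M5 replicate 3 (0.0661). SP100 was 81.8 CPM in M5_O5 replicate 1, 97.8 to 98.7 CPM in the other M5_O5 libraries and 87.2 to 90.1 CPM in M5. It was called higher without that library (0.16, edgeR adjusted p = 0.0286).

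The cytosolic RNA sensors RIG-I (RIGI), MDA5 (IFIH1) and LGP2 (DHX58), which start interferon production on viral RNA, were not called. RIGI measured 60.2, 66.5, 65.2 and 67.6 CPM in M5_O5 and 69.2, 51.9, 56.8 and 55.6 CPM in M5, where M5 replicate 1 was the highest of all 8 libraries (log2 fold change 0.15 ± 0.08, edgeR adjusted p = 0.147). Without M5 replicate 1 it was called higher (0.24, adjusted p = 0.00518). RIGI was also called higher with library size scaling (0.27, edgeR adjusted p = 0.0335) and without both libraries numbered 1 (0.28, adjusted p = 0.000691). DHX58 measured 6.39, 9.53, 9.66 and 8.62 CPM in M5_O5 and 6.35, 8.16, 7.9 and 9.28 CPM in M5, with replicate 1 the lowest in both groups (0.10 ± 0.14, adjusted p = 0.599), and 0.22 without M5_O5 replicate 1. Its sign turned when the trend of the fold change with expression level was removed (-0.06). IFIH1 was 30.9 CPM in M5_O5 replicate 1, 43.4 to 45.2 CPM in the other M5_O5 libraries and 37.4 to 42 CPM in M5 (0.05, adjusted p = 0.715), and without that library it was 0.16 (edgeR adjusted p = 0.0551).

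Of the remaining 10 members, 9 were tested, 1 of them higher (IFI35) and 3 lower (IFI6, IFI27 and XAF1). IFI6, a mitochondrial and endoplasmic reticulum protein that limits cell death, had the lowest log2 fold change of the 46 members. It measured 17.4, 15.5, 14.9 and 15.6 CPM in M5_O5 and 25.6, 22.7, 25.3 and 25.8 CPM in M5, so that the groups were apart (-0.65 ± 0.08, edgeR adjusted p = 2.83e-05). It ranked 189 of the 12434 genes from the lowest change, and unlike most members it was highest, within M5_O5, in replicate 1, without which the log2 fold change was -0.70.

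IFI27, of the same protein family, measured 14.8, 19, 19.1 and 18.3 CPM in M5_O5 and 20.1, 25.8, 32 and 29 CPM in M5, with replicate 1 the lowest in both groups (-0.59 ± 0.12, edgeR adjusted p = 0.00211). The M5 libraries all lay above the M5_O5 libraries, and without M5_O5 replicate 1 the value was -0.51. XAF1, which promotes apoptosis by binding XIAP, was 29.2 CPM in M5_O5 replicate 1, 44.1 to 47.4 CPM in the other M5_O5 libraries and 50.7 to 65.1 CPM in M5 (-0.47, edgeR adjusted p = 0.00823). It was -0.34 without that library (adjusted p = 0.00661), and it was not called with limma on TPM (adjusted p = 0.0591 and 0.0584 at the 2 pseudocounts).

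LGALS3BP, a secreted glycoprotein and the most abundant of these 10 by TPM, measured 222, 241, 268 and 222 CPM in M5_O5 and 189, 238, 209 and 222 CPM in M5. These levels overlapped (0.15 ± 0.08, edgeR adjusted p = 0.136). IFI35 was higher by 0.23 (edgeR adjusted p = 0.043), and its call was lost without M5_O5 replicate 1 (0.0798), 2 (0.0676) or 3 (0.113), and without M5 replicate 1 (0.0913), 2 (0.0662) or 3 (0.0937). With all libraries the IFI35 call was also lost with DESeq2 (adjusted p = 0.079). In edgeR it was lost with another scaling (RLE size factors, adjusted p = 0.057), no count filter (0.058) and the expression-level trend removed (0.177). SAMD9L, a translation inhibitor, was 0.26 and not called, and was called higher without M5_O5 replicate 1 (0.33, edgeR adjusted p = 0.0338) or M5 replicate 1 (0.34, adjusted p = 0.0182). Its neighbour SAMD9 (-0.01), EPSTI1 (0.21) and IFI44 (0.02) were not called. IFI44L was at 0.0593 to 0.345 CPM in M5_O5 and 0.311 to 0.584 CPM in M5, too low to compare.

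**Figure D4:**
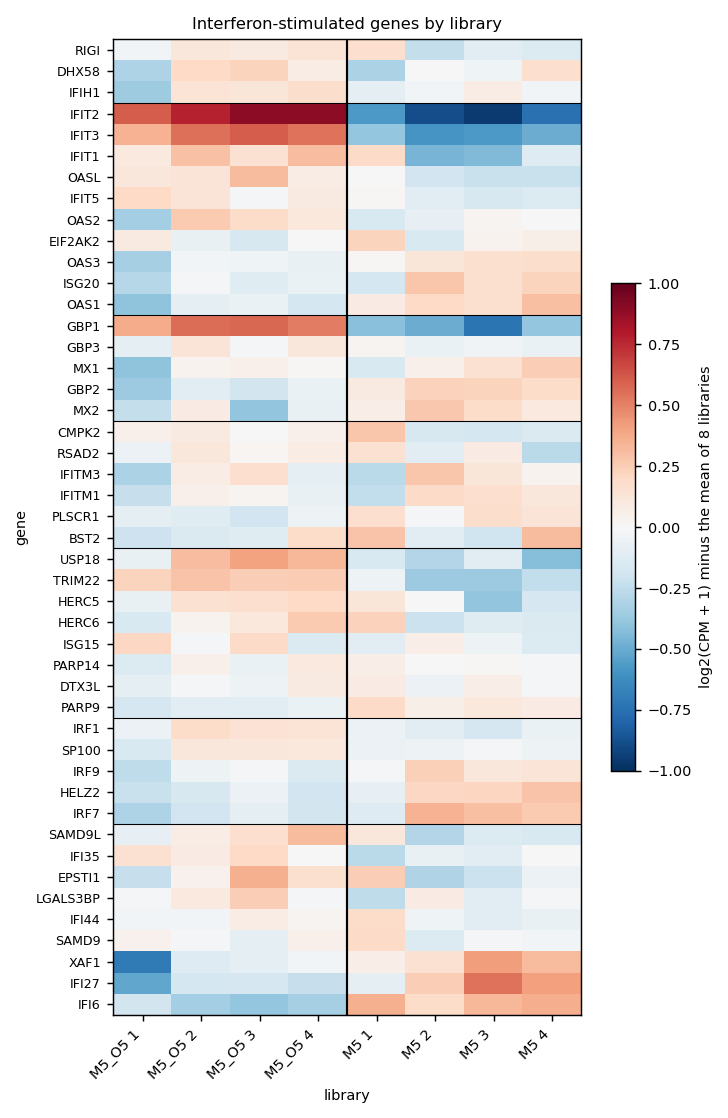
Level of each of the 46 members tested (vertical axis, grouped by role) in each library (horizontal axis) as log2(CPM + 1) minus the mean of the 8 libraries, red above and blue below. IFIT2, IFIT3 and GBP1 separate the groups, and the column of M5_O5 replicate 1 is bluer than the other M5_O5 columns across most members, deepest in XAF1.

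Members that lie next to each other in the genome did not always move together. By the gene order of the RefSeq table, 25 members fell into 10 clusters in which neighbours were at most 2 protein-coding genes apart. The IFIT cluster on chromosome 10 was the cluster whose 4 members were all called in one direction, with log2 fold changes spread from 0.21 for IFIT5 to 1.60 for IFIT2. The guanylate-binding cluster on chromosome 1 was the one with calls in both directions, with GBP3 at 0.08, GBP1 at 1.07 and GBP2 at -0.37, a spread of 1.44. In the OAS cluster on chromosome 12, OAS1 (-0.38) and OAS3 (-0.23) were lower and OAS2 (0.12) was not called. The PARP9, DTX3L and PARP14 cluster on chromosome 3 had 1 lower member, and the other 6 clusters had none called. Related genes can share reads, and the summed estimated counts of IFIT, GBP, OAS and IFITM genes depend on how the counting divided them.

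Transcript counts showed which reads carried these values. A single transcript was listed for 10 members and several for 37, up to 18, and the leading transcript held over 90% of a gene's reads in 20 members. IFIT2 had a single transcript. The leading transcript held 93.9% of IFIT3, 98.1% of GBP1 and 99.7% of TRIM22 reads, so the gene values of these members are close to values of a single transcript. It held 81.9% of IFI6, 55.3% of IFI27, 44.8% of OAS1 and 43.1% of XAF1 reads. For OAS1 the log2 ratio of the group means was -0.19 for the leading transcript and -0.37 for the gene, and for XAF1 it was -0.23 and -0.47. The leading share of OAS1 ran from 41.4% to 54.4% in M5_O5 libraries and from 38.5% to 46.2% in M5 libraries. For XAF1 it ran from 38.2% to 55.5% and from 30.3% to 59.3%. These ranges overlapped, and the difference between transcript and gene was not tested.

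The genes that make and carry the interferon signal were examined with a separate list of 32 genes. Of these, 30 were among the genes analysed here and 26 were tested, of which 3 were higher and 7 lower in M5_O5 (11.5% and 26.9%, beside 19.5% and 17.6% of all genes). Their median log2 fold change was -0.11. The number called higher was 1 without M5_O5 replicate 2 or 4 and without M5 replicate 2, 3 or 4. Among the ligands, interferon kappa (IFNK), the type I interferon of keratinocytes, was at 1.69 to 2.25 CPM in M5_O5 and 3.5 to 4.41 CPM in M5, with 29 to 69 reads per library. It was the gene of the list that passed the 2-fold rule, with a log2 fold change of -1.03 ± 0.16 (edgeR adjusted p = 0.000203). Interferon epsilon (IFNE) was -0.24 and not called, at 4.52 to 5.22 and 5.36 to 6.86 CPM. IFNL1, IFNL2, IFNG and IFNA1, at 0 to 6 reads per library, had too few reads to test, and IFNB1 and IFNL3 were not analysed here.

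Among the receptors, IFNAR2 was lower in M5_O5, at 20 to 23.3 CPM compared with 26.4 to 28.5 CPM (log2 fold change -0.35, edgeR adjusted p = 0.00183), while its partner IFNAR1 was not called (-0.11, adjusted p = 0.236). The chains of the interferon gamma receptor were called in opposite directions. IFNGR2 was lower (-0.58, edgeR adjusted p = 0.00011), at 53.7 to 59.6 and 69.7 to 94.9 CPM, with no overlap. IFNGR1 was higher by less (0.20, adjusted p = 0.0217), at 439 to 490 and 373 to 439 CPM, and its groups overlapped. Of the kinases, JAK1 was lower (-0.36, edgeR adjusted p = 0.000181), TYK2 was lower by less (-0.18, adjusted p = 0.039), and JAK2 was higher (0.69, adjusted p = 0.00368) at 8.89 to 12.6 and 5.22 to 9.2 CPM. The transcription factor STAT2 did not pass the test, at 105 to 126 CPM in M5_O5 and 111 to 133 CPM in M5 (-0.04 ± 0.07, edgeR adjusted p = 0.683). The RNA sensor TLR3 was higher (0.53, edgeR adjusted p = 0.0398), at 4.01 to 5.05 and 2.63 to 4.96 CPM. IFNGR1, JAK2 and TLR3, the 3 pathway genes called higher, all had overlapping groups. Not all of these calls held when a library was left out, as the counts above show. The adapter MAVS (-0.16, edgeR adjusted p = 0.0224) and the inhibitor SOCS3 (-0.27, adjusted p = 0.00334) were lower. SOCS1 was not called.

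**Figure D5:**
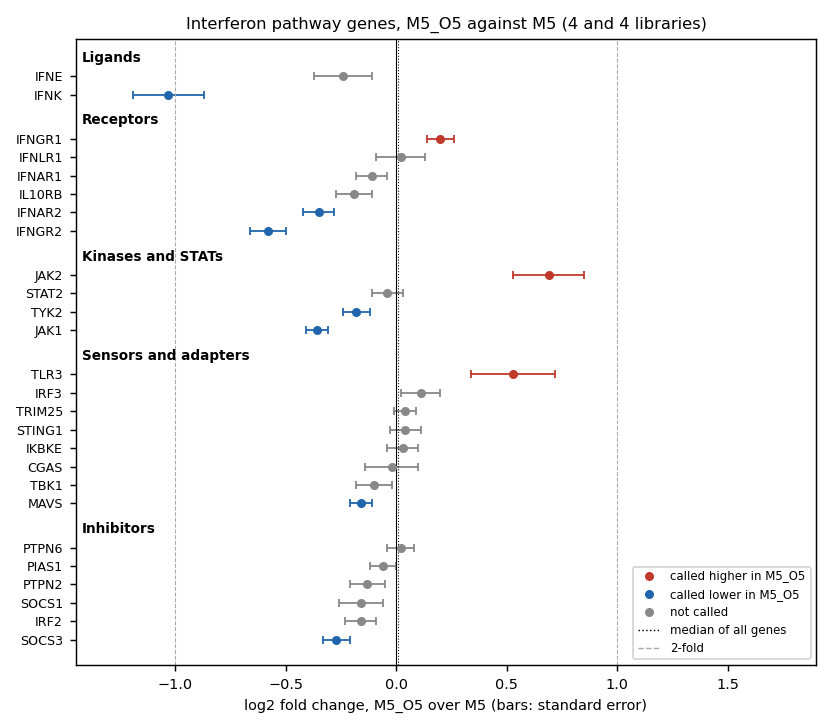
Log2 fold change of M5_O5 over M5 (horizontal axis) for the 26 interferon pathway genes tested, grouped by role, with bars for the standard error and colour for the call at an adjusted p under 0.05. IFNK (-1.03) lies past the 2-fold line on the left, JAK2 (0.69) is farthest to the right, and STAT2 (-0.04) lies near 0.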

How the data were processed

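RNA of 8 HaCaT libraries, 4 titled M5_O5 and 4 titled M5, was sequenced with an mRNA library kit. The authors mapped filtered reads with HISAT2 2.1.0 and counted them with StringTie, while the submitters' processing notes also list Bowtie2 2.2.5, RSEM 1.2.8 and the mouse build mm10 beside human transcript identifiers, so no coordinate was taken from the table. The deposited values are, per transcript, an estimated count that is not normalized, TPM and FPKM. The deposited TPM scales length-corrected values to a fixed sum per library. The deposited FPKM divides counts by transcript length and reads and was not used, and neither were the authors' group means.

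Estimated counts of 86639 transcripts (53.8% of values fractional) were summed by Entrez identifier to 17131 genes and rounded, and TPM was summed likewise. Symbols came from the RefSeq table of GRCh38.p14, which matched 17072 identifiers. Members, roles, the pathway list and the markers were chosen with earlier results of these data known. Genes were filtered with filterByExpr in edgeR 4.0.16 (R 4.3.3), scaled by TMM and compared with the quasi-likelihood test, with Benjamini-Hochberg adjustment over the 12434 genes tested. The threshold of a call was an adjusted p under 0.05, and a second rule also required a 2-fold difference. Each standard error is the absolute fold change divided by the square root of F. CPM is on the TMM scale. The biological coefficient of variation was 7.42%. No 2 libraries looked like one library deposited again, with a mean chi-square per gene of 2.02 to 16.533 between M5 libraries and 3.026 to 11.191 between M5_O5 libraries, where sampling noise alone gives about 1. This check does not say whether replicates were separate cultures. The script was tested on simulated data.

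Values in every library with full statistics were given for members called at 2-fold or more and, in each role, for the 2 members with the largest absolute fold change and the one with the highest TPM (19 members). Other members were given by fold change or range, and pathway genes where called, with STAT2, JAK1, TYK2, IFNAR1 and IFNAR2 in any case. One gene of the pathway list as first written is not reported here, and the counts of the list are given without it. IFNE and SOCS1 were named after their values were seen. There were 19 alternative settings, among them DESeq2 1.42.0, limma 3.58.1 on log2(TPM + 1) and log2(TPM + 0.1), other scalings and filters, a block for the replicate number, and fits that left out each library. Leaving out both libraries numbered 1 was chosen after seeing the data.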

Additional observations from a re-analysis of the deposited data

Results flagged for a closer look

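Each of the 46 members tested was checked in both groups for a library far from the other 3, by the gap to its nearest neighbour as a share of the group's range  (Dixon's critical value at 95% for 4 samples). Of 92 checks 7 passed, where chance gives 4.6. M5_O5 replicate 1 was the library in 4 of them and was low in each. MX1 was 22.2 CPM there (30 to 30.8 CPM in the other M5_O5 libraries), OAS3 was 224 CPM (268 to 277 CPM), IFIH1 was 30.9 CPM (43.4 to 45.2 CPM) and SP100 was 81.8 CPM (97.8 to 98.7 CPM). M5 replicate 1 was the library in 2 and was high in both, with OASL at 45.8 CPM (39.2 to 40.2 CPM in the other M5 libraries) and CMPK2 at 19.8 CPM (14.2 to 14.5 CPM). IFI6 was low in M5 replicate 2, at 22.7 CPM (25.3 to 25.8 CPM).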

How the results depend on the processing

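IFIT2, IFIT3, GBP1, OASL and TRIM22 (5 of the 10 higher members) and OAS1, GBP2, IRF7, HELZ2, IFI6 and IFI27 (6 of the 11 lower members) kept their call in all 19 alternative settings. Of the alternative values of the 19 members given with full statistics, 331 kept their direction and side of the threshold, 16 passed it newly, 7 no longer passed it and 6 changed sign. With library size scaling 16 members were higher and 7 lower, beside 31% and 8.11% of all genes, and the median member was at 0.18 on the log2 scale. With limma on log2(TPM + 1) 12 members were higher and 6 lower, the median was 0.16 and 3 pathway genes were lower. With limma on log2(TPM + 0.1) these values were 12, 6, 0.17 and 4. Over all genes 26.2% were higher and 6.12% lower with log2(TPM + 1), and 26.3% and 6.18% with log2(TPM + 0.1). The median of all genes was 0.13, 0.12 and 0.13 in these settings, and the cause was not tested beyond that shift. Without both libraries numbered 1, 18 of the 46 members tested were higher and 13 of the 46 lower, beside 23.3% and 21.6% of all genes. IFITM3 changed sign with library size scaling (0.04), with the expression-level trend removed (0.08), with limma at either pseudocount (0.04 and 0.04) and without M5_O5 replicate 1, with values from -0.18 to 0.00 when each library was left out, and DHX58 with the expression-level trend removed (-0.06). The cause was not tested. When each library was left out in turn, 6 to 12 members were higher, 10 to 13 lower and 2 to 3 past 2-fold, the median ranged from 0.02 to 0.09, and 1 to 3 pathway genes were higher and 5 to 8 lower. Over all genes 15.2% to 22.9% were higher and 13.4% to 19.9% lower in these fits. M5_O5 replicate 1 was lowest in 34 members on the TMM scale, 33 by library size, 35 with the trend removed and 25 by TPM. Whether libraries of the same replicate number in the 2 groups were paired was not settled. Their deviations from the group mean correlated at 0.19, 0.082, -0.009 and 0.018 over genes. Between libraries of unlike number the correlations ran from -0.184 to 0.177, and low values do not exclude a pairing. With the replicate number as a block 10 members were higher and 12 lower, beside 21.7% and 20.5% of all genes. ISG20 was added, and 8 pathway genes were lower. MX2 (7 to 19 reads per library) and BST2 (18 to 34) had the largest standard errors of the members tested.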
